A study of Homo sapiens with 12 samples.

Results

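The 10 genes CLDN1, CLDN4, CLDN7, OCLN, TJP1, EPCAM, DSP, JUP, PKP2 and PKP3, which encode parts of epithelial tight junctions and desmosomes, were chosen by gene symbol from 32152 genes. All 10 were found in 1 row each and all passed the filter on low values. The question was whether they followed CDH1, the gene of E-cadherin. RNA was sequenced from MDA-MB-231 and Hs-578T, 2 established human cell lines of triple-negative breast cancer, a cancer without estrogen and progesterone receptors and without HER2 amplification. Each line gave 2 libraries of parental controls, 2 libraries labelled ERK5-ko and 2 libraries labelled MEK5DD. The ERK5-ko cells were made with CRISPR guides to MAPK7, the gene of ERK5, sorted for GFP and grown from single cells, and for MDA-MB-231 a single clone survived the sort. MEK5DD stands for MEK5, the kinase upstream of ERK5, in a form that is always active. How it was introduced into the cells is not given in the sources used here. Sample names carry p29 and p30 for parental MDA-MB-231, p7 and p8 for its ERK5-ko cells and p10 and p11 for its MEK5DD cells. They carry p83 and p84 for parental Hs-578T and p8 and p9 for both of its engineered groups. Read as passage numbers, these cannot be told apart from the engineering in any comparison with parental cells. The replicates differ by 1 in this number, so p values measure the spread between such neighbouring harvests. As the ERK5-ko cells were grown from single cells, differences between clones cannot be told apart from the knockout either. No p value covers them. This also holds where the ERK5-ko changes of the 2 lines are compared.

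Tight junctions seal the space between epithelial cells near their apical side. Claudins (CLDN) and occludin (OCLN) span the membrane there, and ZO-1, made from TJP1, ties them to the actin skeleton. Desmosomes hold cells together mechanically. Their cadherins bind plakoglobin (JUP) and plakophilins (PKP), which bind desmoplakin (DSP), and desmoplakin anchors keratin filaments. Plakoglobin also takes part in adherens junctions, where E-cadherin sits. EpCAM (EPCAM) is an epithelial adhesion protein that associates with claudin 7. In epithelial to mesenchymal transition (EMT), cells lose E-cadherin and other junction proteins, and both lines are known as mesenchymal in shape.

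Before the junction genes, the labels were checked, and MAPK7 RNA did not fall with ERK5-ko. Its RPKM, reads scaled to the length of a gene and to the reads of a library, was 13.3 and 14.3 in parental MDA-MB-231 and 16.3 and 17.8 with ERK5-ko, and 14.0 and 16.0 against 17.8 and 18.1 in Hs-578T. An edited gene can still be transcribed. The study reports that its clones were checked for the knockout by qRT-PCR as well as by Western blot. On the blots it reports ERK5 protein as knocked out in both lines against parental cells. These data do not measure protein, and why MAPK7 RNA was not lower in these libraries was not tested. Directions given for these libraries rest on their labels. MAP2K5, the gene of MEK5, had RPKM 188 and 184 in MDA-MB-231 libraries labelled MEK5DD against 12.9 and 13.6 in parental controls. In Hs-578T it had 21.3 and 23.8 against 14.6 and 16.9. Library totals lay between 20248162 and 27791195 reads. ESR1 had 3 reads or fewer in every parental library of both lines, and PGR had 0 in those of MDA-MB-231 but 22 and 23 reads in those of Hs-578T. Markers of other cell types were low but not all absent. The summed RPKM of 4 leukocyte markers was 0.419 to 2.21 over all libraries, mostly CD14 (9 to 58 reads), with PTPRC at 0 to 13 reads and CD3E at 0 to 1. That of 3 endothelial markers was 0.3 to 6.52, mostly PECAM1, which had 152 to 158 reads in parental Hs-578T, 196 to 218 with ERK5-ko and 73 to 78 with MEK5DD, while CDH5 had at most 3 reads in all libraries. The part of these markers in the results was not tested.

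For 7 of the 10 genes the 250 bases before a RefSeq start were at hand, in 13 windows of GRCh38.p14. In these, 2 motifs were searched on both strands, the E-box CACCTG, which reads CAGGTG on the other strand, letters that ZEB and SNAI repressors of CDH1 are known to bind, and the AP-1 motif TGANTCA, bound by FOS and JUN proteins. The motifs share no letters in any of these windows. The E-box occurred in 6 of the 13 windows and in 17.5% of all 35116 windows of this length, and the AP-1 motif in 1 of the 13 and in 6.57%. The windows with an E-box had 66.0 to 78.0% GC and those without 34.8 to 70.4%, against a median of 58.0% over all windows. The part of GC content in these shares was not tested. Some genes gave more than 1 window, and those of OCLN overlap, so the 13 are not independent. Of the 13 windows, 9 held over 30 exon bases of another GENCODE 29 transcript of the same gene, so stretches of 30 bases around some of the matches are shown. They are given for claudin 4 and plakoglobin, which fell together with MEK5DD in MDA-MB-231, and for claudin 7 and occludin, which did not. Capitals mark the motif, and each stretch reads 5′ to 3′ on the strand of its gene.
CLDN4, AP-1 match 242 bases before the start, chr7:73830746-73830775, plus strand: ctgggctgTGATTCAgtgtctgtctcccgg
CLDN4, AP-1 match 161 bases before the start, chr7:73830824-73830853, plus strand: agactggatagTGACTCAgggacccggggc
JUP, E-box matches 54 and 43 bases before the start, chr17:41786007-41786036, minus strand: tggcccCACCTGccgagCAGGTGagcgcac
CLDN7, E-box matches 20 and 9 bases before the start, chr17:7262479-7262508, minus strand: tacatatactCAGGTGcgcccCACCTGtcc
OCLN, E-box match 33 bases before the start, chr5:69492502-69492531, plus strand: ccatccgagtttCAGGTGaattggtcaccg
Further E-box matches lay 174 and 135 bases before this start of CLDN7 and 133 bases before another start of OCLN, and others in windows of TJP1 and DSP. The claudin 1 window held neither motif. Another window of JUP and another of CLDN7 held neither motif. No window was at hand for EPCAM, PKP2 and PKP3, or for CDH1. The part of these letters in any change was not tested. A match is a description of letters and does not show that a factor binds there.

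The 2 parental lines started from different junction gene sets. Of the 10 genes, 7 were called, all higher in parental MDA-MB-231 than in parental Hs-578T, where a call needed an adjusted p below 0.05 together with a fold over 1.5 for higher or below 0.5 for lower. Of all 13737 genes tested, 34.1% were higher and 15.4% lower by these thresholds, and 46% higher by the adjusted p alone. The filter on low values asked for RPKM 0.5 in 2 or more libraries. Among the 7 called, CLDN7 and EPCAM reached it in no Hs-578T library, and OCLN there only in parental replicate 1. These genes passed the filter through MDA-MB-231, so the direction of their calls and their part in the median below restate how they entered. The median log2 difference was 2.12 over the 10 genes and 0.19 over all genes tested, and median-ratio scaling moved the latter to -0.02. That scaling also moved the split of called genes from 4679 higher and 2122 lower to 3625 and 2612. In bulk RNA, fewer cells with a transcript and less of it per cell cannot be told apart.

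Among tight junction genes, CLDN4 had RPKM 97.9 and 99.2 in parental MDA-MB-231 and 0.291 and 0.471 in parental Hs-578T. This was the widest gap among genes with more than 3 reads in both lines, 258-fold in RPKM and 6.82 on the log2(RPKM + 0.5) scale (SE 0.123, adjusted p = 8.9e-13, limma). CLDN7 had RPKM 16.5 and 15.2 in MDA-MB-231, and 1 and 0 reads in Hs-578T. The ratio of its 842 reads to that 1 read was 699 after scaling to library totals, with an exact 95% counting interval of 125 to 27630. EPCAM had RPKM 18.4 and 19.5 in MDA-MB-231 and 2 and 1 reads in Hs-578T, a ratio of 312 (107 to 1517). In all 6 Hs-578T libraries CLDN7 had at most 1 read and EPCAM at most 2, so no fold is given for them within that line. OCLN had 3.74 and 3.94 against 0.503 and 0.428, 8.27-fold higher in MDA-MB-231 (log2 2.17, adjusted p = 2.35e-09, limma). TJP1 had 37.7 and 35.7 against 13.3 and 19.9, 2.21-fold higher (log2 1.15, adjusted p = 0.000251). CLDN1 was low in both, at 0.456 and 0.405 against 0.515 and 0.296. Its groups overlapped, and the 95% interval of the log2 difference was -0.34 to 0.44.

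Among desmosome genes, PKP2 had RPKM 19.96 and 18.8 in parental MDA-MB-231 and 0.338 and 0.348 in parental Hs-578T, 56.5-fold higher (log2 4.56, adjusted p = 4.97e-12, limma). DSP had 18.4 in both MDA-MB-231 libraries and 2.75 and 5.72 in those of Hs-578T, 4.36-fold higher (log2 2.08, adjusted p = 2.14e-05). JUP and PKP3 were abundant in both lines. JUP had 73.0 and 83.5 against 52.9 and 61.5 (log2 0.45, adjusted p = 0.0133), and PKP3 30.45 and 32.1 against 22.1 and 20.3 (log2 0.55, adjusted p = 0.00173). In both the groups did not overlap, but the fold stayed under 1.5. CDH1 itself was low in both lines, at 0.640 and 0.650 in MDA-MB-231 (35 and 40 reads) and 0.119 and 0.218 in Hs-578T (6 and 10 reads), and was called higher in MDA-MB-231 (log2 0.78, adjusted p = 0.000165), a call lost with a pseudocount of 1 (log2 0.495). Thus the E-cadherin transcript lay at or under 0.650 RPKM while plakoglobin lay at or above 52.9 RPKM in the same 4 libraries.

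Within a line, RPKM ranks genes by reads per length. The length behind the RPKM matches the mean length of a gene's annotated transcripts, which is 0.307 of the longest one for PKP3 and 0.656 for EPCAM. Per this length, CLDN4 (98.5 ± 0.902, SD, n = 2) ranked first and JUP (78.3 ± 7.40) second in parental MDA-MB-231, and CLDN1 (0.430 ± 0.0356) last. In parental Hs-578T, JUP (57.2 ± 6.06) ranked first, followed by PKP3 (21.2 ± 1.25) and TJP1 (16.6 ± 4.63), and CLDN7 last. With the longest transcript as the length, ranks 1 to 3 in MDA-MB-231 kept their genes and PKP3 and TJP1 changed places in Hs-578T, where TJP1 ranged from 13.3 to 19.9 and PKP3 from 20.3 to 22.1. CLDN7 shares 269 exon bases with AC003688.1 on its own strand and 38 with ELP5 on the other, OCLN has a pseudogene, OCLNP1, and CDH1 shares 347 bases with the antisense gene AC099314.1. How reads in such stretches were assigned is not given in the sources used here.

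**Figure D1:**
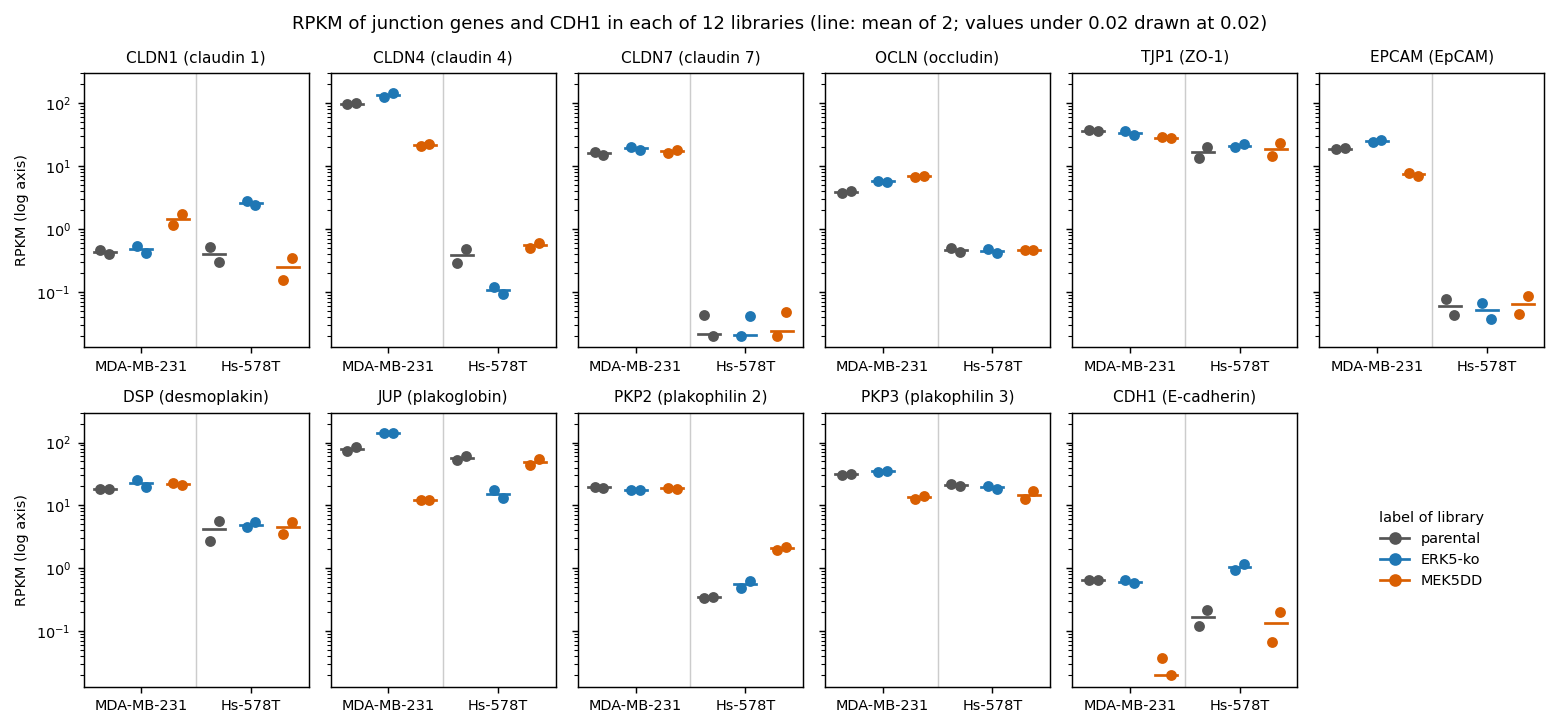
RPKM (log axis) of the 10 junction genes and of CDH1 in each of the 12 libraries, with dots for libraries, lines for the mean of 2 and colors for the label. Values under 0.02 are drawn at 0.02. Within MDA-MB-231, JUP, CLDN4, EPCAM, PKP3 and CDH1 sit lowest in libraries labelled MEK5DD, while within Hs-578T JUP sits lowest and CLDN1 and CDH1 highest in libraries labelled ERK5-ko.

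With ERK5-ko in MDA-MB-231, plakoglobin rose while E-cadherin RNA was not called. Of the 10 genes, 1 was called, as higher, while 2.8% of all genes tested were higher and 1.07% lower. Their median log2 fold change was 0.27, that of all genes -0.04, and 8 of the 10 had a value above 0. JUP had RPKM 143 and 144 with ERK5-ko against 73.0 and 83.5 in parental controls. Both values lay above both controls, a 1.83-fold rise (log2 0.87, 95% interval 0.56 to 1.19, adjusted p = 0.00194, limma), which was called under all 24 alternatives.

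A further 3 genes passed the adjusted p with a fold under 1.5, where 6.91% of all genes passed that p upward and 10.4% downward. OCLN had 5.89 and 5.48 against 3.74 and 3.94 (log2 0.51, adjusted p = 0.00557). CLDN4 had 125 and 144 against 97.9 and 99.2 (log2 0.45, adjusted p = 0.0283). EPCAM had 24.4 and 25.7 against 18.4 and 19.5 (log2 0.39, adjusted p = 0.0265). In each of the 3 the libraries labelled ERK5-ko lay above both controls. The other 6 did not pass. CLDN7 (20.3 and 18.2) and PKP3 (34.0 and 35.6) lay above their controls by log2 0.27 (0.02 to 0.52) and 0.15 (-0.12 to 0.43). DSP had 25.7 and 19.6 (log2 0.28, -0.31 to 0.87). PKP2, at 17.5 in both, lay under its controls by log2 -0.14 (-0.37 to 0.09), and TJP1 (36.3 and 31.3) and CLDN1 (0.544 and 0.410) overlapped theirs. CDH1 had 0.640 and 0.579 against 0.640 and 0.650 (log2 -0.05, -0.33 to 0.24, adjusted p = 0.872). That value rests on 32 reads in each library labelled ERK5-ko. The study itself reports higher CDH1 transcript and protein in its MDA-MB-231 ERK5-ko cells, a rise in RNA that these libraries do not show. It also reports higher CDH1 expression in its Hs-578T ERK5-ko cells. By its methods, qRT-PCR was scaled to β-actin in cells kept in charcoal-stripped medium, a measure unlike the RPKM used here. The part of this in the CDH1 difference was not tested. Beside these values, the summed RPKM of 7 luminal epithelial markers was 2590 to 2600 against 1540 to 1640 in parental controls, mostly the keratin genes KRT8, KRT18 and KRT19, with PGR and FOXA1 at 3 reads or fewer in both groups. The part of this in the results was not tested.

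With MEK5DD in MDA-MB-231, the junction genes split in direction. Plakoglobin, claudin 4, EpCAM and plakophilin 3 fell together with E-cadherin, claudin 1 and occludin rose, and claudin 7, ZO-1, desmoplakin and plakophilin 2 were not called. Of the 10 genes, 4 were lower and 2 higher, against 6.31% and 7.64% of all genes tested. Over all genes 1049 were higher and 867 lower, and 1333 and 695 under quantile normalization. The median log2 fold change was -0.21 over the 10 genes and -0.01 over all.

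The 4 genes that fell did so in both libraries. JUP had RPKM 11.96 and 12.3 against 73.0 and 83.5 in parental controls, 6.46-fold lower (log2 -2.64, SE 0.144, adjusted p = 7.96e-08, limma). CLDN4 had 21.0 and 22.4 against 97.9 and 99.2, 4.53-fold lower (log2 -2.16, SE 0.123, adjusted p = 1.19e-07). Of the stretches shown above, that of JUP holds E-box letters and those of CLDN4 hold AP-1 letters, whose part in the fall was not tested. EPCAM had 7.79 and 7.08 against 18.4 and 19.5, 2.55-fold lower (log2 -1.30, adjusted p = 2.24e-06). PKP3 had 12.7 and 13.9 against 30.45 and 32.1, 2.35-fold lower (log2 -1.20, adjusted p = 1.55e-05). No library labelled MEK5DD reached a control in any of the 4, and all 4 calls held under all 24 alternatives.

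CDH1 had 2 and 0 reads in libraries labelled MEK5DD against 35 and 40 in parental controls. The ratio of parental to MEK5DD reads, scaled to library totals, was 37.0, with an exact 95% counting interval of 9.89 to 311. Its fitted log2 change of -1.14 (adjusted p = 2.95e-05) depends on the pseudocount of 0.5, and with a pseudocount of 1 it was -0.69, no longer past the fold threshold.

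OCLN and CLDN1 rose. OCLN had RPKM 6.81 and 6.97 against 3.74 and 3.94, 1.79-fold higher (log2 0.77, adjusted p = 0.000101). CLDN1 had 1.17 and 1.75 against 0.456 and 0.405, 3.40-fold higher in RPKM (log2 1.06, adjusted p = 0.000553), on 55 and 95 reads against 22 and 22. For both the groups did not overlap, and both calls held under all 24 alternatives. Among the rest, PKP2 (19.0 and 18.4) overlapped its controls, with a log2 difference of -0.05 (-0.28 to 0.18). CLDN7 (16.4 and 18.1) overlapped too, at 0.12 (-0.13 to 0.37). DSP (23.0 and 21.4) lay above its controls by 0.26 (-0.33 to 0.85, adjusted p = 0.478). TJP1 (28.996 and 27.7) lay below by -0.37 (-0.81 to 0.07, adjusted p = 0.17). Beside these values, the summed RPKM of the mesenchymal markers VIM, CDH2 and FN1 was 3490 to 3570 against 1650 to 1800 in parental controls, mostly VIM, and that of the luminal markers 1170 to 1220 against 1540 to 1640, where KRT19 was called lower (244 against 503) and KRT8 and KRT18 were not called. The part of either in the results was not tested.

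**Figure D2:**
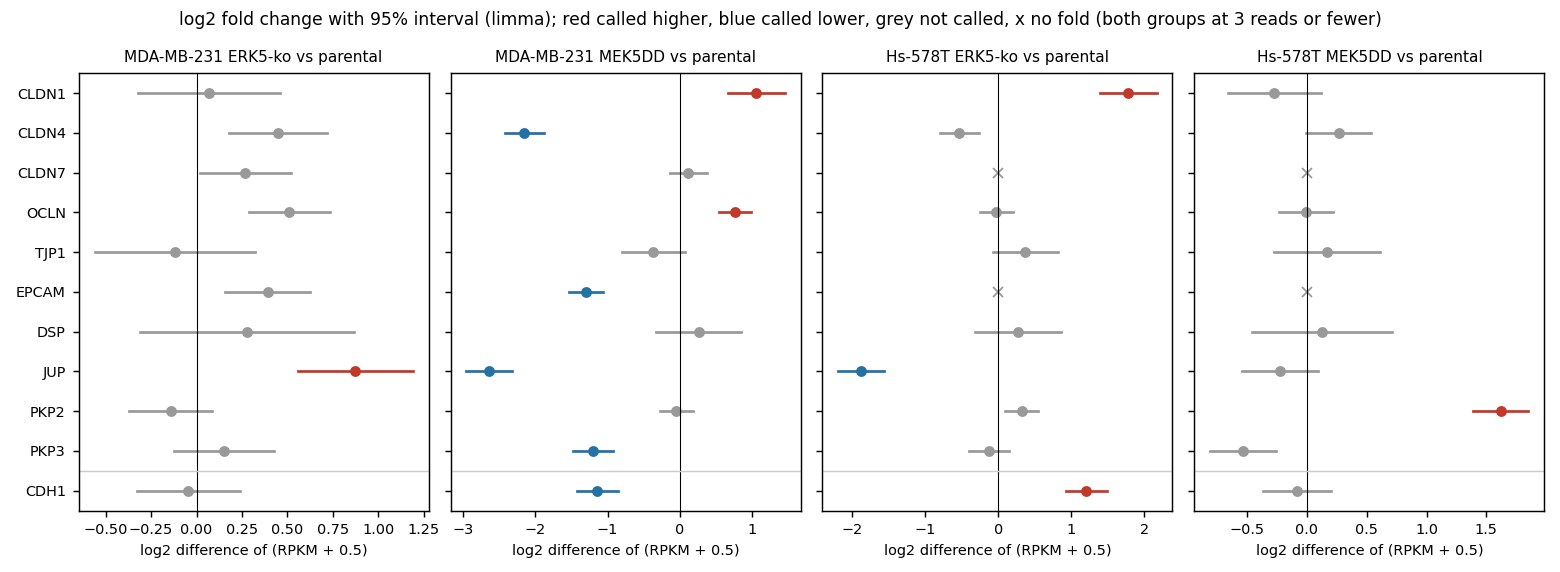
Fitted log2 fold change against parental controls of the same line, with 95% intervals, for the 10 genes and CDH1, with a separate x axis in each panel. Red marks genes called higher, blue genes called lower, grey genes not called, and x genes with 3 reads or fewer in both groups. JUP is red in MDA-MB-231 ERK5-ko and blue in MDA-MB-231 MEK5DD and Hs-578T ERK5-ko. The size of the CDH1 change in MDA-MB-231 MEK5DD depends on the pseudocount.

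Set against each other, the 2 engineered groups of MDA-MB-231 differed in the same 4 genes. JUP was 11.9-fold higher with ERK5-ko than with MEK5DD (log2 3.51, adjusted p = 4.54e-09), CLDN4 6.21-fold (log2 2.60, adjusted p = 1.42e-08), EPCAM 3.37-fold (log2 1.69, adjusted p = 1.47e-07) and PKP3 2.61-fold (log2 1.35, adjusted p = 3.61e-06). These 4 were the genes called, all as higher, while 17.5% of all genes tested were higher and 6.12% lower. CDH1 had 64 reads in all against 2, a scaled ratio of 34.9 (9.27 to 294). CLDN1 was lower in ERK5-ko by -0.99 on the log2(RPKM + 0.5) scale (adjusted p = 0.000564), at the edge of the fold threshold of 0.5, and 3.06-fold in RPKM. Without ERK5-ko replicate 1 or MEK5DD replicate 1 of MDA-MB-231 it was called lower. OCLN passed the adjusted p only (log2 -0.26, adjusted p = 0.0497), which 27.1% of all genes passed upward and 27.9% downward. CLDN7, TJP1, DSP and PKP2 had adjusted p values of 0.29, 0.324, 0.982 and 0.492.

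With ERK5-ko in Hs-578T, claudin 1 rose together with E-cadherin while plakoglobin fell. With CLDN7 and EPCAM at or under 3 reads, 8 genes could be compared. On the log2(RPKM + 0.5) scale, a gene whose parental mean RPKM is under 0.5 cannot reach a fold below 0.5, even without a read. In Hs-578T this held for CLDN1, CLDN4, OCLN and PKP2 (mean RPKM 0.406, 0.381, 0.465 and 0.343) and for CDH1 (0.168). In MDA-MB-231 it held for CLDN1 (0.430). None of these could be called lower against those parental controls. Of the 10 genes, 1 was called higher and 1 lower, against 9.35% and 3.27% of all genes tested. The median log2 fold change of the 8 was 0.12, that of all genes 0.01.

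CLDN1 had RPKM 2.75 and 2.43 against 0.515 and 0.296 in parental controls. It was 6.38-fold higher in RPKM (log2 1.78, SE 0.178, adjusted p = 2.09e-05, limma), on 141 and 115 reads against 23 and 12. JUP had 17.4 and 13.2 against 52.9 and 61.5, 3.74-fold lower (log2 -1.88, SE 0.144, adjusted p = 3.01e-06). Neither gene's groups overlapped, and both calls held under all 24 alternatives. CDH1 had 0.930 and 1.16 (54 and 62 reads) against 0.119 and 0.218 (6 and 10 reads), 6.20-fold higher in RPKM (log2 1.21, adjusted p = 3.45e-05). E-cadherin and plakoglobin RNA therefore moved in opposite directions in the same libraries.

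CLDN4, with 7 and 5 reads against 15 and 22, had RPKM 0.118 and 0.0916 against 0.291 and 0.471 (log2 -0.54, adjusted p = 0.0053). It passed the adjusted p, could not reach the fold on this scale, and was called lower with a pseudocount of 0.1 and on the recovered reads. PKP2 had 0.491 and 0.616 against 0.338 and 0.348 (log2 0.32, adjusted p = 0.0318), also without reaching the fold. By the adjusted p alone, 19.7% of all genes were higher and 19.7% lower. PKP3 had 20.2 and 18.5 against 22.1 and 20.3 (log2 -0.13, -0.41 to 0.14), and OCLN 0.475 and 0.420 against 0.503 and 0.428 (log2 -0.03, -0.25 to 0.20). TJP1 had 20.2 and 22.2 against 13.3 and 19.9 (log2 0.37, -0.07 to 0.81), and DSP 4.46 and 5.41 against 2.75 and 5.72 (log2 0.27, -0.32 to 0.86). Parental replicate 2 decided these last 2, since without it TJP1 (log2 0.65) and DSP (log2 0.74) were called higher, which raised the count of higher genes from 1 to 3. Beside these values, the summed RPKM of the luminal markers was 588 to 636 against 195 to 270 in parental controls, nearly all from KRT18 (571 against 177, called higher). Among the other luminal markers GATA3 was called higher too (9.28 against 4.27), KRT8 was at 28.8 against 48.8 (log2 -0.75, adjusted p = 0.00013), past the adjusted p but not the fold, KRT19 (0.186 against 0.307) was not called, and PGR (0.0986 against 0.325) was too low to be tested. The sum of the mesenchymal markers was 6500 to 6820 against 5590 to 6860, and of these CDH2 was called higher (233 against 140). The part of these markers in the results was not tested.

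With MEK5DD in Hs-578T, plakophilin 2 alone among the 10 genes was called, and it was higher. Of all genes tested, 2.9% were higher and 1.49% lower, 398 and 204 genes, and 586 and 168 under quantile normalization. PKP2 had RPKM 1.98 and 2.21 against 0.338 and 0.348 in parental controls, 6.11-fold higher in RPKM (log2 1.62, SE 0.105, adjusted p = 4.66e-06, limma), on 78 and 88 reads against 15 and 14. The groups did not overlap, and the call held under all 24 alternatives. PKP3 had 12.6 and 16.8 against 22.1 and 20.3 (log2 -0.53, adjusted p = 0.011), below both controls without reaching a fold of 0.5, and 17% of all genes passed that p downward and 6.44% upward.

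The other 6 comparable genes did not pass. Of these, CLDN1, CLDN4 and OCLN could not be called lower at their parental RPKM, and neither could CDH1. JUP had 43.4 and 54.6 and overlapped its controls (log2 -0.23, -0.54 to 0.09, adjusted p = 0.291). CLDN4 had 0.504 and 0.606, above both controls (log2 0.27, -0.01 to 0.54). CLDN1 had 0.152 and 0.349 (log2 -0.27, -0.66 to 0.12). OCLN (0.454 and 0.464), TJP1 (14.7 and 22.9) and DSP (3.50 and 5.52) overlapped their controls too, with log2 differences of -0.01, 0.17 and 0.13. CDH1 had 3 and 9 reads against 6 and 10 (log2 -0.08, -0.37 to 0.20, adjusted p = 0.695), a depth at which a change of its size could not be seen. MAP2K5 was 1.43-fold higher in these libraries (log2 0.50) against 14.1-fold in MDA-MB-231 (log2 3.77).

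The engineered groups of Hs-578T share the labels p8 and p9. CLDN1 was 10.3-fold higher in RPKM with ERK5-ko than with MEK5DD (log2 2.05, adjusted p = 3.67e-06) and CDH1 7.87-fold (log2 1.29, adjusted p = 1.13e-05). JUP was 3.20-fold lower (log2 -1.65, adjusted p = 3.85e-06) and PKP2 3.79-fold lower (log2 -1.30, adjusted p = 2.22e-06). Of the 10 genes, 1 was thus higher and 2 lower, against 15.3% and 3.96% of all genes tested. CLDN4 (log2 -0.80, adjusted p = 0.000285) and PKP3 (log2 0.40, adjusted p = 0.0201) passed the adjusted p alone, as 19.2% of all genes did downward and 30.7% upward, and PKP3 was called higher without MEK5DD replicate 2.

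The lines differed in most of these responses when the difference itself was tested. For ERK5-ko, 4 of the 10 genes had a change more positive in MDA-MB-231 than in Hs-578T and 2 a change more negative at an adjusted p under 0.05, against 18.3% and 21.5% of all genes tested. The 4 include EPCAM, which had at most 2 reads in Hs-578T, so that its difference restates its change in MDA-MB-231. JUP differed by 2.75 on the log2 scale (95% interval 2.30 to 3.20, adjusted p = 3.83e-06, limma), being higher with ERK5-ko in one line and lower in the other. CLDN4 differed by 0.98 (adjusted p = 0.00114) with the same pair of directions. Neither of its changes reached the fold, which its fall in Hs-578T could not reach at its parental RPKM. CLDN1 differed by -1.71 (adjusted p = 0.000335) and CDH1 by -1.25 (adjusted p = 0.000323), both called higher with ERK5-ko in Hs-578T and not called in MDA-MB-231. OCLN differed by 0.54 (adjusted p = 0.0125) and PKP2 by -0.46 (adjusted p = 0.0287), and PKP2 was no longer past the threshold when any of 6 libraries was left out, both parental and both ERK5-ko libraries of MDA-MB-231, parental replicate 1 or ERK5-ko replicate 2 of Hs-578T. OCLN lost the threshold without parental replicate 1 of MDA-MB-231 (log2 0.50) and with limma voom on recovered reads. EPCAM gave 0.41 (adjusted p = 0.0478), which 15 of 23 alternatives did not keep, the replicate block included (adjusted p = 0.0523). TJP1 differed by -0.49 (adjusted p = 0.191), and with the block its adjusted p was 0.0284. CLDN7, DSP and PKP3 gave adjusted p values of 0.203, 0.988 and 0.226.

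For MEK5DD, 5 genes had a change more negative in MDA-MB-231 and 2 a change more positive, against 18.2% and 21.3% of all genes tested. CLDN4 differed by -2.42 (adjusted p = 1.67e-06) and JUP by -2.41 (adjusted p = 5.83e-06), the fall seen in MDA-MB-231 against no call in Hs-578T. At their low parental RPKM in Hs-578T, CLDN4 and CDH1 could not be called lower there. A fall of the same fold in both lines would still give them a negative difference. PKP2 differed by -1.67 (adjusted p = 8.59e-06), from its rise in Hs-578T. EPCAM, one of the 5, gave -1.31 (adjusted p = 5.19e-05), which likewise restates its change in MDA-MB-231, and did not pass on the recovered reads. PKP3, below its controls in both lines, differed by -0.67 (adjusted p = 0.0113), and without MEK5DD replicate 1 of MDA-MB-231 (-0.61) it was no longer past the threshold. CLDN1 differed by 1.33 (adjusted p = 0.00156), OCLN by 0.77 (adjusted p = 0.0014) and CDH1 by -1.06 (adjusted p = 0.000898). TJP1 did not pass (-0.53, adjusted p = 0.159) but passed with the replicate block (adjusted p = 0.0198). CLDN7 (0.11) and DSP (0.14) did not pass.

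**Figure D3:**
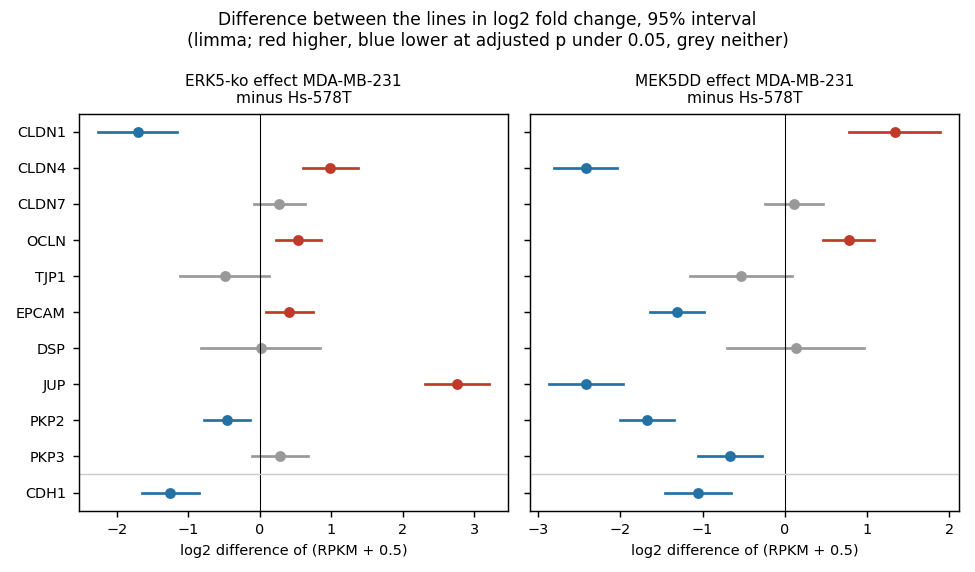
Difference between the lines in fitted log2 fold change (MDA-MB-231 minus Hs-578T) with 95% intervals, for ERK5-ko at left and MEK5DD at right. Red and blue mark a positive and a negative difference at an adjusted p under 0.05, grey neither. JUP lies at 2.75 for ERK5-ko and at -2.41 for MEK5DD. CLDN7 and EPCAM are set against a line with at most 2 reads, so their values are nearly those of MDA-MB-231.

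Side by side with CDH1, the genes did not share 1 pattern. In MDA-MB-231, CDH1 was not called with ERK5-ko (log2 -0.05), where JUP was at 0.87. It fell with MEK5DD (-1.14), as did JUP (-2.64), CLDN4 (-2.16), EPCAM (-1.30) and PKP3 (-1.20), while OCLN (0.77) and CLDN1 (1.06) rose. The fitted size for CDH1 depends on the pseudocount and cannot be ranked beside the others. Its scaled ratio of parental to MEK5DD reads was 37.0 (9.89 to 311). In Hs-578T, CDH1 rose with ERK5-ko (1.21), as did CLDN1 (1.78), while JUP fell (-1.88). CDH1 was not called with MEK5DD there (-0.08) and could not be called lower at its parental RPKM, while PKP2 rose (1.62). The comparisons of a line share their parental controls. CLDN7 and DSP were called in no comparison between groups of 1 line, and neither was TJP1.

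The other genes of the same structures were counted from lists. Over all genes tested, 2.8% were called higher and 1.07% lower with ERK5-ko in MDA-MB-231, 7.64% and 6.31% with MEK5DD there, 9.35% and 3.27% with ERK5-ko in Hs-578T and 2.9% and 1.49% with MEK5DD there, and these are the background to each count that follows. Of 37 other tight junction genes, 35 were in the data and 22 were tested. With ERK5-ko in MDA-MB-231, 4 were called, all higher. CLDN2, claudin 2, which forms cation pores, had a mean RPKM of 46.5 ± 0.702 (SD, n = 2) against 13.1 ± 0.934 (log2 1.79, adjusted p = 1.21e-06). PARD6B, a cell polarity protein, had 24.4 against 12.6 (log2 0.93) and PATJ, a polarity scaffold, 16.8 against 9.26 (log2 0.83). The fourth was MARVELD2, which encodes tricellulin. With MEK5DD in MDA-MB-231, 5 were called, all lower. CLDN2 fell to 0.742 (log2 -3.45, adjusted p = 5.73e-10) and PARD6B to 1.56 (log2 -2.67), and TJP3 had 0 reads in both libraries against 34 and 41 in parental controls. The others were PATJ and CGNL1. In Hs-578T, MAGI1 (13.6 against 6.34) rose with ERK5-ko, and JAM2 (0.711 against 2.77) and F11R (0.198 against 1.36), both junctional adhesion molecules, fell. F11R also fell with MEK5DD (0.376), the only call of the list there.

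Of 12 other desmosome genes, 7 were tested. PPL, periplakin, a keratin linker, fell with MEK5DD in MDA-MB-231 from 37.6 ± 0.645 to 2.51 ± 0.0853 (log2 -3.66, adjusted p = 6.38e-09). In Hs-578T, the desmosomal cadherin genes DSC3 (2.56 against 1.03) and DSG2 (24.3 against 14.9) were called higher, the first with ERK5-ko and the second with MEK5DD. Of 10 adherens junction genes, CDH1 among them, 9 were tested. NECTIN1 rose with MEK5DD in MDA-MB-231 (31.5 against 15.6) and with ERK5-ko in Hs-578T (41.0 against 26.7), where AFDN, afadin, rose too (4.46 against 2.17). CDH1, with MEK5DD in MDA-MB-231, was the one called lower against parental controls.

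Of 13 epithelial transcription and splicing factors, 8 were tested. ELF3 was the one called with ERK5-ko in MDA-MB-231 (2.24 against 0.974, log2 0.90). With MEK5DD there, the splicing factor gene ESRP2 (0.681 against 4.93) and the ETS factor genes EHF (28.7 against 68.4) and ELF3 (1 and 2 reads) fell, and KLF5 (27.2 against 17.0) rose. In Hs-578T, KLF5 rose with ERK5-ko (5.13 against 2.90) and with MEK5DD (7.16), and ESRP1 fell with MEK5DD (0.158 against 1.11). Of 6 EMT transcription factors, all were tested and 1 was called against parental controls, TWIST1, which fell with ERK5-ko in Hs-578T (14.6 against 32.8) and had 0 reads in MDA-MB-231. ZEB1 had a mean RPKM of 20.9 with ERK5-ko and 42.4 with MEK5DD against 30.6 in parental MDA-MB-231, and was called lower between the first 2.

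Of 12 further epithelial genes, listed as surface genes though not all encode surface proteins, 9 were tested. With ERK5-ko in MDA-MB-231, MAL2 (20.8 against 8.87) and CDS1 (6.18 against 3.40) were among those that rose. With MEK5DD there, 5 fell, among them MAL2 (0.611) and SPINT1 (1.37 against 4.74), and 1 rose, CD24 (2.69 against 1.63). In Hs-578T, SPINT1 (0.476 against 1.90) and CD24 (36.4 against 82.7) fell with ERK5-ko, and AP1M2 (1.45 against 0.220) and SPINT1 (3.77) rose with MEK5DD.

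**Figure D4:**
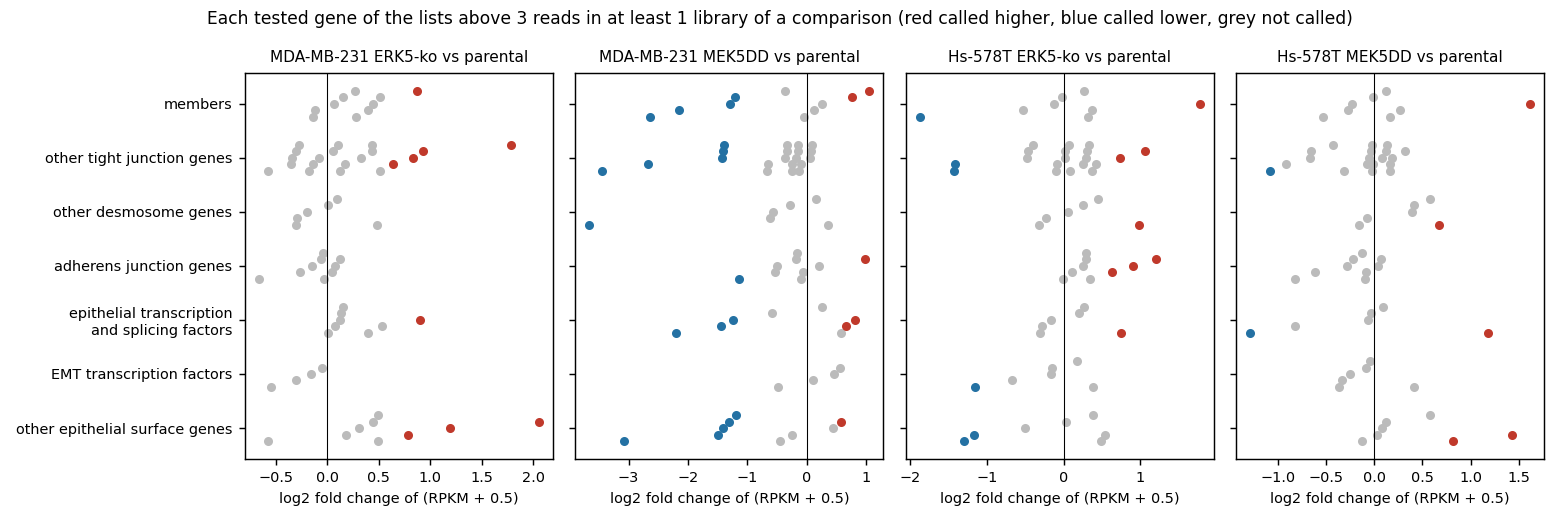
Fitted log2 fold change against parental controls for each tested gene of the 10 junction genes and of the 6 other lists, leaving out genes that never exceed 3 reads in a comparison, with a separate x axis in each panel. Red and blue mark genes called higher and lower, grey genes not called. In MDA-MB-231 the called dots are red for ERK5-ko and mostly blue for MEK5DD, and in Hs-578T both colors occur in each panel.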

How the data were processed

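Sequencing of RNA gave 12 libraries, 2 in each cell line for each of parental controls, cells labelled ERK5-ko and cells labelled MEK5DD. Groups are the combinations of line and label. The authors deposited RPKM values for 32152 genes, 17665 of them protein coding, which scale the reads on a gene to its length and to the library total. Per the labels, cells were at 70% confluence and a stranded mRNA kit was used. The submitters' processing notes name GRCh38, bcl2fastq, Trimmomatic 0.32, TopHat2 2.1.1, R 3.3.1 and DESeq2 1.12.4, and the counting tool is not given in the sources used here. As the scaling is to the library total, a change in a few abundant genes shifts all others. Gene length cancels between libraries but not between genes. It equals the mean transcript length of GENCODE 29 within 5% for 99.1% of 27628 genes with the same identifier.

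Read counts were recovered from RPKM as whole numbers (tolerance 1e-06) for 32151 of 32152 genes, against 0 of 500 genes with totals 1% off. The floor was set at 3 reads, and a gene that exceeded it in no library of either group of a comparison was given no fold. With 1 group at the floor the fitted change was kept in calls and medians, and its size depends on the pseudocount. Tests of the difference between lines kept all genes tested. Counting intervals are exact at 95% and, like this floor, cover counting error only. No pair of libraries was identical.

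The 13737 protein-coding genes that reached RPKM 0.5 in 2 or more libraries were fitted as log2(RPKM + 0.5) by limma 3.58.1 (R 4.3.3), with 1 mean for each of 6 groups, 6 residual degrees of freedom and a variance trend. Fitted changes understate those of low genes. P values were two-sided and adjusted by Benjamini-Hochberg within each of 9 comparisons. Genes were called at an adjusted p under 0.05 with a fold above 1.5 or below 0.5, and differences between lines at that p alone. An exact permutation test of 2 against 2 cannot go below 0.333 and was not used. The fit was tested on simulated data. Replicate numbers were treated as a possible pairing. The deviations of same-numbered libraries correlated in all 6 pairs of groups within a line (0.107 to 0.541, over genes). The highest value was for parental and MEK5DD libraries of Hs-578T, and the next was 0.187. The fit with this number as a block was an alternative. The 24 alternatives changed the pseudocount, filter, scaling, gene types, thresholds, libraries in the fit, block and test (limma voom on recovered reads) and left out each of the 12 libraries.

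The genes named are the 10 junction genes, CDH1, MAPK7, MAP2K5 and, from each other list, up to 3 called genes a direction with the largest change against parental controls. MARVELD2, PATJ and CGNL1 where they are further members of a short count, KRT8, KRT18, KRT19, ZEB1 and marker genes were added after their values were seen or as labelled checks. The junction genes and lists were chosen with earlier results of these data known. CLDN5, CLDN8 and OVOL1 matched no symbol. Motifs were searched in RefSeq promoter windows. Other steps used Python 3.11.15, pandas 2.3.3, scipy 1.17.1 and matplotlib 3.10.9. Values of some single genes of the lists are not reported here.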

Additional observations from a re-analysis of the deposited data

Results flagged for a closer look

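The effect of a label differed between MDA-MB-231 and Hs-578T, by a test of the difference itself, for 6 of the 10 junction genes with ERK5-ko and for 7 with MEK5DD, and for CDH1 with both. Of all genes tested, 18.3% had a more positive and 21.5% a more negative change in MDA-MB-231 with ERK5-ko, and 21.3% and 18.2% with MEK5DD. Both counts include EPCAM, which had at most 2 reads in Hs-578T, so that its difference restates its change in MDA-MB-231. Values are the log2 change in MDA-MB-231 minus that in Hs-578T.

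For ERK5-ko the difference was 2.75 for JUP, 0.98 for CLDN4 and 0.54 for OCLN. For EPCAM it was 0.41, which 15 of 23 alternatives did not keep, the replicate block included (adjusted p = 0.0523). It was -1.71 for CLDN1, -1.25 for CDH1 and -0.46 for PKP2. OCLN lost the threshold under 2 of 23 alternatives and PKP2 under 6. JUP and CLDN4 had changes of opposite sign in the lines.

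For MEK5DD the difference was -2.42 for CLDN4, -2.41 for JUP, -1.67 for PKP2, -1.31 for EPCAM, -1.06 for CDH1 and -0.67 for PKP3. It was 1.33 for CLDN1 and 0.77 for OCLN. In Hs-578T, CLDN4 and CDH1 were too low in parental controls to be called lower. MAP2K5 was 14.1-fold higher in MDA-MB-231 libraries labelled MEK5DD and 1.43-fold higher in those of Hs-578T, and its part in these differences was not tested.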

How the results depend on the processing

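With 2 libraries a group and 6 residual degrees of freedom, changes under the fold threshold are poorly resolved, and in Hs-578T depth limits CLDN7 and EPCAM (at most 2 reads) and leaves CDH1, CLDN4 and CLDN1 on few reads. CDH1 lost its calls with MEK5DD in MDA-MB-231 and between parental lines with a pseudocount of 1 and had no value with a filter of RPKM 1, and fits to 1 line could not be made for comparisons between lines. Of the values for single genes under the alternatives, 2098 kept direction and side of the threshold, 28 lost the threshold, 32 gained it and 32 changed sign, the last for uncalled genes. Of the counts of called junction genes, 402 stayed within 1.5 times the main count and 24 did not. Causes were not tested.

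Counts over all genes also moved. In MDA-MB-231, 147 genes were lower with ERK5-ko, but 285 with a pseudocount of 0.1, 89 with 1, 324 with limma voom and 689 with a fold below 0.667, and 867 were lower with MEK5DD, but 1923 with that fold. In Hs-578T, 449 were lower with ERK5-ko, but 710 with a pseudocount of 0.1, 788 with limma voom and 1343 with that fold. With MEK5DD there, 204 were lower, but 411 with a pseudocount of 0.1, 132 with 1, 458 with limma voom and 888 with that fold, and 398 were higher, but 240 when fitted to libraries of that line alone. For ERK5-ko against MEK5DD, 841 were lower in MDA-MB-231, but 2170 with that fold, while Hs-578T had 544, but 1389 with that fold and 846 with limma voom. Between parental lines 2122 were lower, but 3225 with that fold. The adjusted p alone raised the counts in each direction in all 7 comparisons that use a fold, more than 1.5-fold except for higher genes between parental lines.

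With the adjusted p alone, counts became 4 higher for ERK5-ko in MDA-MB-231, 2 lower for ERK5-ko against MEK5DD there, 2 higher and 2 lower for ERK5-ko in Hs-578T, 1 lower for MEK5DD there and 2 higher for ERK5-ko against MEK5DD there. CLDN1 was called lower for ERK5-ko against MEK5DD in MDA-MB-231 (count 1) with a pseudocount of 0.1, a fold below 0.667 or limma voom. With a pseudocount of 0.1 or limma voom, 2 genes were lower for ERK5-ko in Hs-578T, and with a pseudocount of 1, 1 was lower for ERK5-ko against MEK5DD there. With limma voom, 2 genes had a more positive ERK5-ko change in MDA-MB-231. Leaving out 1 library gave 0 to 1 lower for ERK5-ko against MEK5DD in MDA-MB-231, 1 to 3 higher for ERK5-ko in Hs-578T, 1 to 2 higher for ERK5-ko against MEK5DD there, and 2 to 4 genes with a more positive and 1 to 3 with a more negative ERK5-ko change in MDA-MB-231. The replicate block, the pairing by number, gave TJP1 a called difference between lines for ERK5-ko (-0.49) and MEK5DD (-0.53) and took that of EPCAM for ERK5-ko (0.41), and changed no other call of the 10 genes or CDH1.

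Signs changed under quantile normalization for CDH1 (0.046) with ERK5-ko and PKP2 (0.043) with MEK5DD in MDA-MB-231, DSP (-0.0) between these groups, and in Hs-578T OCLN with ERK5-ko (0.019) and MEK5DD (0.12) and CDH1 with MEK5DD (0.008). Under median-ratio scaling they changed for OCLN with MEK5DD in Hs-578T (0.037) and CLDN1 between parental lines (-0.057), and the DSP difference between lines for ERK5-ko was -0.017 with a pseudocount of 0.1 and -0.031 with limma voom. With 1 library left out, values spanned 0 in MDA-MB-231 for CLDN1 with ERK5-ko (-0.031 to 0.167) and DSP for ERK5-ko against MEK5DD (-0.177 to 0.208). In Hs-578T they did so with ERK5-ko for OCLN (-0.082 to 0.03) and DSP (-0.199 to 0.738), with MEK5DD for OCLN (-0.064 to 0.048), TJP1 (-0.145 to 0.48), DSP (-0.342 to 0.595) and CDH1 (-0.233 to 0.067), and between these groups for OCLN (-0.06 to 0.025), TJP1 (-0.11 to 0.515) and DSP (-0.153 to 0.438). They also did so for the DSP difference between lines with ERK5-ko (-0.46 to 0.478) and MEK5DD (-0.333 to 0.604) and for CLDN1 between parental lines (-0.126 to 0.224).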
